A study of Mus musculus with 6 samples.

Results

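The genes described here encode the proteasome and its regulators, and the question put to them was whether the immune subunits moved differently from the constitutive ones. They were chosen by name: every protein-coding gene whose symbol begins with Psma to Psmg and a number. The rule found 50 of the 54532 genes in the count table, of which 5 are the interferon-inducible genes Psmb8, Psmb9, Psmb10, Psme1 and Psme2 and 45 are the others. RNA came from MB49, a bladder cancer cell line of a male mouse. The Y-KO group has the genotype label CRISPR Y-KO, read here as a knockout of Y genes. The Y-Scr group carries a non-targeting guide RNA. Each has 3 libraries, and the sample titles name no batch. The labels name the samples a cell line and, under tissue, a tumor. The sources used here do not give the guide used for Y-KO. The labels' protocols describe cells selected by tRFP, a red fluorescent protein, and grown up as clones of single cells, so a difference between the groups cannot be told apart from one between clones. The labels do not say whether replicates were separate clones or cultures, so p-values measure only the spread between these libraries, which may be technical.

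The proteasome is the cell's main machine for degrading ubiquitin-tagged proteins. Its 20S core is a barrel of alpha and beta rings, in which Psmb5, Psmb6 and Psmb7 cut proteins with chymotrypsin-like, caspase-like and trypsin-like preference. Interferon and immune cells switch on Psmb8, Psmb9 and Psmb10, which take the places of Psmb5, Psmb6 and Psmb7 in newly built cores and form the immunoproteasome. Psme1 and Psme2 encode the PA28 alpha and beta subunits of an inducible cap. Many of the peptides that MHC class I molecules present to CD8 T cells are made this way. The 19S cap, built from Psmc ATPases and Psmd subunits, recognises, unfolds and feeds substrates to the core.

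The libraries held 15698510 to 18327877 counts in Y-KO and 15907451 to 24633158 in Y-Scr. The Y genes Ddx3y, Eif2s3y, Kdm5d and Uty held 0 counts over the Y-KO libraries and 22726 over the Y-Scr libraries. Of 17 leukocyte markers, 10 were at 0 in all 6 libraries, Ptprc, Cd3e and Itgam among them. Levels are given in CPM, the counts of a gene scaled to a common library size (counts-per-million). The summed level of the list was 95.5 to 102 CPM in Y-KO and 108 to 116 CPM in Y-Scr, nearly all of it Cd68; without Cd68 it was 0.685 to 1.53 and 0.886 to 1.75 CPM. Cd68, a macrophage marker, had a log2 fold change of -0.17 ± 0.06 (SE, edgeR adjusted p = 0.0357). The part of immune cells, which carry much immunoproteasome, in the results was not tested. Of 14 urothelial markers, 4 were at 0 (Krt20, Epcam, Cdh1 and Upk3a), and 7 held 10 or more counts over all libraries. The list summed to 4013 to 4320 CPM in Y-KO and 3359 to 3727 CPM in Y-Scr, nearly all of it Krt8 and Krt18. Krt8 had means of 2816 CPM in Y-KO and 2188 CPM in Y-Scr, and Krt18 of 1351 and 1326 CPM. Krt8 rose by 0.36 ± 0.06 (SE, edgeR adjusted p = 7.14e-05) and Krt18 did not pass the test. Gata3 fell by 1.48 ± 0.21 (SE, edgeR adjusted p = 1.41e-05). Fibroblast markers summed to 17.5 to 19.9 CPM in Y-KO and 11.3 to 15.3 CPM in Y-Scr, and endothelial markers to 0.560 to 0.859 and 0.544 to 0.752 CPM; their part in the results was not tested.

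The stretches before the RefSeq starts of the immune subunit genes are shown because inducible and constitutive subunits are known to be driven by different elements. They are compared with those of the replaced subunits Psmb5 and Psmb6; Psmb7 had no entry. Each is the 250 bases upstream of the RefSeq start in GRCm38.p6, written 5′ to 3′ on the gene's own strand. They lie at chr17:34197945-34198194 (Psmb8, plus strand), chr17:34187331-34187580 (Psmb9, minus), chr8:105938393-105938642 (Psmb10, minus), chr14:55578244-55578493 (Psme1, plus), chr14:55591102-55591351 (Psme2, minus), chr14:54617996-54618245 (Psmb5, minus) and chr11:70525107-70525356 (Psmb6, plus). Capitals mark a match to one of 3 motifs searched on both strands: GAAA, NN and GAAA in a row (an interferon-stimulated response element, ISRE), TTCNNNGAA (a gamma-activated site, GAS) and TGANNNNGC (an antioxidant response element core, ARE, which Nfe2l1 and Nfe2l2 bind).
Psmb8: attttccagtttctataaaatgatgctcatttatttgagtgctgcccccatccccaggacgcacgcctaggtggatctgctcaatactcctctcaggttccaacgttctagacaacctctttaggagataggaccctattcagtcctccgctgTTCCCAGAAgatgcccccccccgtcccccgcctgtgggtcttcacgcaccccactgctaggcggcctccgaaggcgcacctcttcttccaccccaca
Psmb9: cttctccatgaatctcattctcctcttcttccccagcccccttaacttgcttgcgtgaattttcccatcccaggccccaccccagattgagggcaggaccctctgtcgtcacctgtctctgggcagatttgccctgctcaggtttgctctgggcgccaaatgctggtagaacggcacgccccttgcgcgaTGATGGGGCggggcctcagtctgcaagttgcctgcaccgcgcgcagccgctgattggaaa
Psmb10: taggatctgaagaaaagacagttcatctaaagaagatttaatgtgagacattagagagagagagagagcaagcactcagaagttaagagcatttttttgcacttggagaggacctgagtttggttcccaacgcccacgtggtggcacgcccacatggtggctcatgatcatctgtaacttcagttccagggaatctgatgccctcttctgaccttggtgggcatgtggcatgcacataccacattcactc
Psme1: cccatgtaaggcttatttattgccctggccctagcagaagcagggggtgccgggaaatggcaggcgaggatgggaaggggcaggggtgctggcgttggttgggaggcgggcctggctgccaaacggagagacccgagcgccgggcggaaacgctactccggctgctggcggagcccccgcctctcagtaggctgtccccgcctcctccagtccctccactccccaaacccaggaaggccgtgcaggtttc
Psme2: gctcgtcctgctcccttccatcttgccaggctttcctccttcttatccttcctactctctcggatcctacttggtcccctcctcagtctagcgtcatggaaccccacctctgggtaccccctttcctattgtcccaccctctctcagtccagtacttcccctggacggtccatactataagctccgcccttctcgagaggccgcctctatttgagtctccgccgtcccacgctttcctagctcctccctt
Psmb5: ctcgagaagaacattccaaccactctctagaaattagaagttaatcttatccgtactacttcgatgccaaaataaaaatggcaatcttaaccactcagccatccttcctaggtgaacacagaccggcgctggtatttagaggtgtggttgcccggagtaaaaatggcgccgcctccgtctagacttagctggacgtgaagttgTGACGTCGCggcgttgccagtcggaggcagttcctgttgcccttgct
Psmb6: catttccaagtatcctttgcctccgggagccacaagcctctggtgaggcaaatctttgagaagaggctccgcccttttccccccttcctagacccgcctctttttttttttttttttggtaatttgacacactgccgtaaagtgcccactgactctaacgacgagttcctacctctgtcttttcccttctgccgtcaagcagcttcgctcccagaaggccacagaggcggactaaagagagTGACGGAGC
The ISRE letters occurred in 0 of the 5 immune windows, in 3 of 37 windows of the other members and in 2.98% of 32851 RefSeq windows. The GAS letters occurred in Psmb8 alone of the 5, 97 to 89 bases before the start, in 1 of 37 others and in 7.02% of all windows. The ARE core was found in Psmb9 alone of the 5, 60 to 52 bases before the start, in 14 of 37 others and in 35.2% of all windows. In Psmb5 it stood 47 to 39 bases, and in Psmb6 9 to 1 bases, before the start. These matches are descriptions of the windows, and 8 of the 50 genes had none to search. In the deposited coordinates Psmb8, Psmb9 and Psme1 start further upstream, at 34197721, 34187764 and 55578123. Their windows thus lie inside the gene and miss the stretch before that start. The RefSeq starts of Psmb9 and Tap1, the peptide transporter gene, lie 226 bases apart on opposite strands.

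Of the 5 immune subunits 4 were past the test, all lower in Y-KO. Psmb9, Psmb10, Psme1 and Psme2 fell, and Psmb8, with too few counts for the main test, stood below Y-Scr in all 3 Y-KO libraries. The fold changes of the 4 tested ones ran from -2.24 (Psmb9) to -0.47 (Psmb10) on the log2 scale. Of 12907 genes tested with edgeR's quasi-likelihood test and an adjusted p threshold of 0.05, 23.0% were lower in Y-KO, 20.7% higher and 43.6% either. In 27.5% all Y-KO libraries lay below all Y-Scr libraries and in 25.4% above them. The 4 of 4 tested immune subunits that fell, all without overlap, are read against these shares. One of the 4, Psmb9, passed the low-count filter only through its Y-Scr libraries and so had to differ; the other 3 did not depend on that.

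Psme2 encodes PA28 beta (ENSMUSG00000079197, chromosome 14, 55587441 to 55591113, GRCm38). It stood at 62.1, 49.9 and 52.2 CPM in Y-KO libraries 1 to 3, against 91.0, 114 and 112 CPM in Y-Scr libraries 1 to 3. All Y-KO libraries lay below all Y-Scr libraries, and the library nearest to the other group was Y-KO 1. The means were 54.7 ± 6.47 CPM in Y-KO and 106 ± 12.7 CPM in Y-Scr (SD, n = 3 each), and Psme2 fell by 0.95 ± 0.10 on the log2 scale (SE, edgeR adjusted p = 7.25e-07). Psme2b, a copy of Psme2 on chromosome 11, could take up some of its reads. Summed over both genes, the level was 90.9, 93.1 and 87.9 CPM in Y-KO and 126, 151 and 171 CPM in Y-Scr, again without overlap.

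Psme1, which encodes PA28 alpha, lies on the same chromosome at 55578123 to 55581529. It held 95.3, 93.4 and 98.7 CPM in Y-KO, against 126, 134 and 141 CPM in Y-Scr. The Y-KO libraries were close together and all below the Y-Scr libraries. Psme1 fell by 0.48 ± 0.07 (SE, edgeR adjusted p = 8.73e-06). Psmb10, the inducible trypsin-like subunit on chromosome 8, held 33.6, 30.4 and 30.0 CPM in Y-KO, against 39.5, 42.0 and 48.5 CPM in Y-Scr. The groups did not overlap, with Y-Scr 3 the highest. Psmb10 fell by 0.47 ± 0.10 (SE, edgeR adjusted p = 0.00051). Psmb10, Psme1 and Psme2 stayed past the threshold in all 16 alternative settings, but with each library's dependence on gene length removed the fold changes of Psmb10 (-0.26, adjusted p = 0.0163) and Psme1 (-0.30) were smaller by over 1.5 times.

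Psmb9 and Psmb8, neighbours on chromosome 17, were barely transcribed in either group. Psmb9, the inducible subunit that takes the place of Psmb6, had 4, 2 and 8 counts in Y-KO, against 15, 28 and 29 counts in Y-Scr. That is 0.215, 0.124 and 0.453 CPM in Y-KO and 0.949, 1.69 and 1.21 CPM in Y-Scr, with no overlap. Psmb9 fell by 2.24 ± 0.53 (SE, edgeR adjusted p = 0.00203). Of the tested members it had the most negative fold change, and also the fewest counts. Its annotated span overlaps that of Tap1 on the opposite strand by 212 bases, and no source used here gives the strand setting of the counting, so reads in the overlap cannot be assigned.

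Psmb8, the inducible chymotrypsin-like subunit, had 6, 2 and 3 counts in Y-KO, against 6, 10 and 14 in Y-Scr. Its level was 0.322, 0.124 and 0.170 CPM in Y-KO and 0.380, 0.605 and 0.585 CPM in Y-Scr. The Y-KO libraries were all lower, but Y-KO 1 and Y-Scr 1 nearly met. Over the groups the ratio of Y-KO to Y-Scr was 0.394, with an exact 95% interval of 0.178 to 0.809 that covers counting error only. With the low-count filter left out, 12.8% of 23458 genes were lower and 11.1% higher in Y-KO, and Psmb8 had a log2 fold change of -1.31 ± 0.80 and an edgeR adjusted p of 0.275. A difference of this size in Psmb8 did not pass the test at this depth.

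**Figure D1:**
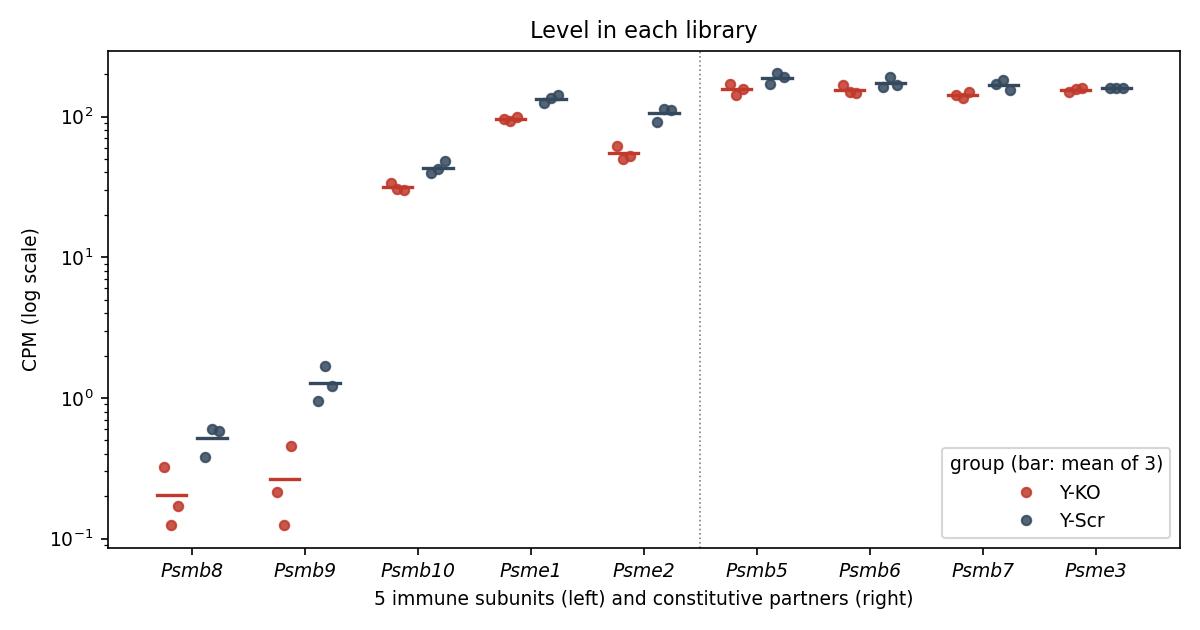
Level in CPM (log scale) of the 5 immune subunits and 4 constitutive counterparts in each of 3 Y-KO and 3 Y-Scr libraries; horizontal bars are group means. The Y-KO points lie below all Y-Scr points for each of the 5 immune subunits. They also do so, by a narrow margin, for Psmb7 and Psme3, while the groups overlap for Psmb5 and Psmb6.

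Set against the subunits they replace, Psmb8 and Psmb9 were a trace and Psmb10 was a sizeable part. In RPKM, which divides CPM by gene length in kilobases, Psmb8 reached 0.0455 to 0.118 in Y-KO and 0.139 to 0.221 in Y-Scr, where Psmb5 stood at 158 to 191 in Y-KO and 190 to 225 in Y-Scr. Psmb8 then made up 0.0421% ± 0.0174 of the Psmb8 and Psmb5 sum in Y-KO and 0.0903% ± 0.0150 in Y-Scr (SD, n = 3 each). Psmb9 made up 0.0892% ± 0.0612 of its pair with Psmb6 in Y-KO and 0.373% ± 0.0752 in Y-Scr. Psmb10 was of another order, with 30.8% ± 1.78 of its pair with Psmb7 in Y-KO and 34.2% ± 4.001 in Y-Scr. With the mean length of the coding transcripts in place of the gene's full exon length, the Psmb10 share was 16.4% in Y-KO and 18.7% in Y-Scr, so the share depends on the length used.

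The log2 ratio of Psmb9 to Psmb6 was -10.35 ± 0.96 in Y-KO and -8.08 ± 0.29 in Y-Scr, a difference of -2.27 with no overlap. For Psmb8 to Psmb5 it was -11.29 ± 0.57 in Y-KO and -10.13 ± 0.25 in Y-Scr, a difference of -1.16, also with no overlap. Both gave p = 0.1 in a two-sided exact permutation test, the smallest that 3 against 3 libraries allow (0.15 after Benjamini-Hochberg adjustment over the 3 ratios). The ratio of Psmb10 to Psmb7 was -1.17 ± 0.12 in Y-KO and -0.95 ± 0.25 in Y-Scr. Its difference of -0.22 was within the spread of the libraries (exact permutation p = 0.3), and the groups overlapped. Without Y-Scr 3, which had the highest ratio, that difference was -0.08.

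**Figure D2:**
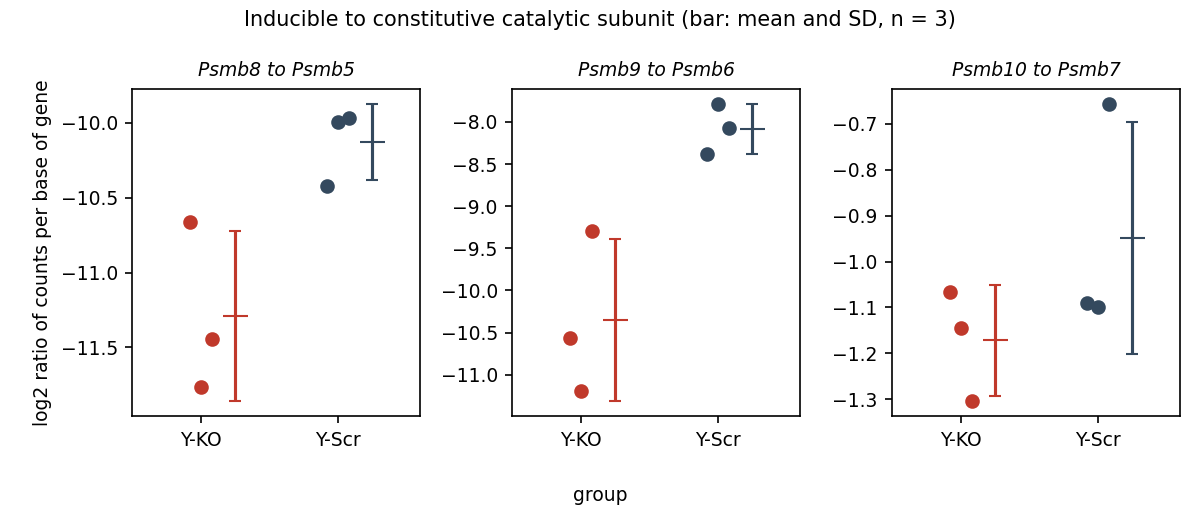
Log2 ratio of an inducible catalytic subunit to the constitutive one it replaces, per base of gene, in each Y-KO and Y-Scr library, with the mean and SD of 3 beside the points; the vertical scale differs between panels. Psmb8 and Psmb9 separate the groups, and for Psmb10 the Y-Scr libraries other than replicate 3 fall among the Y-KO values.

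The constitutive catalytic subunits had fold changes between -0.27 and -0.17. Psmb5 held 171, 142 and 156 CPM in Y-KO, against 171, 203 and 192 CPM in Y-Scr, and Y-KO 1 matched Y-Scr 1. It fell by 0.27 ± 0.08 (SE, edgeR adjusted p = 0.00716), a call that was lost without Y-KO 2 (adjusted p = 0.0608) or Y-Scr 2 (0.0549) and with the length trend removed (-0.06, adjusted p = 0.46). Psmb7 held 141, 135 and 148 CPM in Y-KO, against 169, 181 and 153 CPM in Y-Scr. The groups did not overlap, and Psmb7 fell by 0.24 ± 0.07 (edgeR adjusted p = 0.00732, and 0.0595 without Y-Scr 2). That call was also lost with the trend on length removed (-0.13, adjusted p = 0.104) or on length and GC (-0.02, 0.825). Psmb6 held 166, 149 and 146 CPM in Y-KO, against 162, 192 and 167 CPM in Y-Scr. Its groups overlapped, with a log2 fold change of -0.17 ± 0.07 (edgeR adjusted p = 0.0603), which was past the threshold without Y-KO 1 (0.0351), Y-Scr 1 (0.0251) or Y-Scr 3 (0.0345).

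Among the 43 other members tested, 16 fell, 5 rose and 22 did not pass the test. Beside the 23.0% lower and 20.7% higher over all genes, the share that rose is below the background and the share that fell above it, an order that turned round once trends on gene length and GC content were removed. In 18 all Y-KO libraries lay below all Y-Scr libraries, and in 9 above them, beside 27.5% below and 25.4% above over all genes. The median log2 fold change of the 43 was -0.12, against -0.71 over the 4 tested immune subunits and -0.01 over all tested genes. Without Psmb9, the immune median was -0.48. In order from the lowest fold change, Psmb9, Psme2, Psme1 and Psmb10 were at places 1, 3, 6 and 8 of 47. The places between them belonged to Psmd10, Psmg3, Psmd8 and Psma6, so the immune subunits did not form a block of their own. No test of the immune subunits as a set was made.

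**Figure D3:**
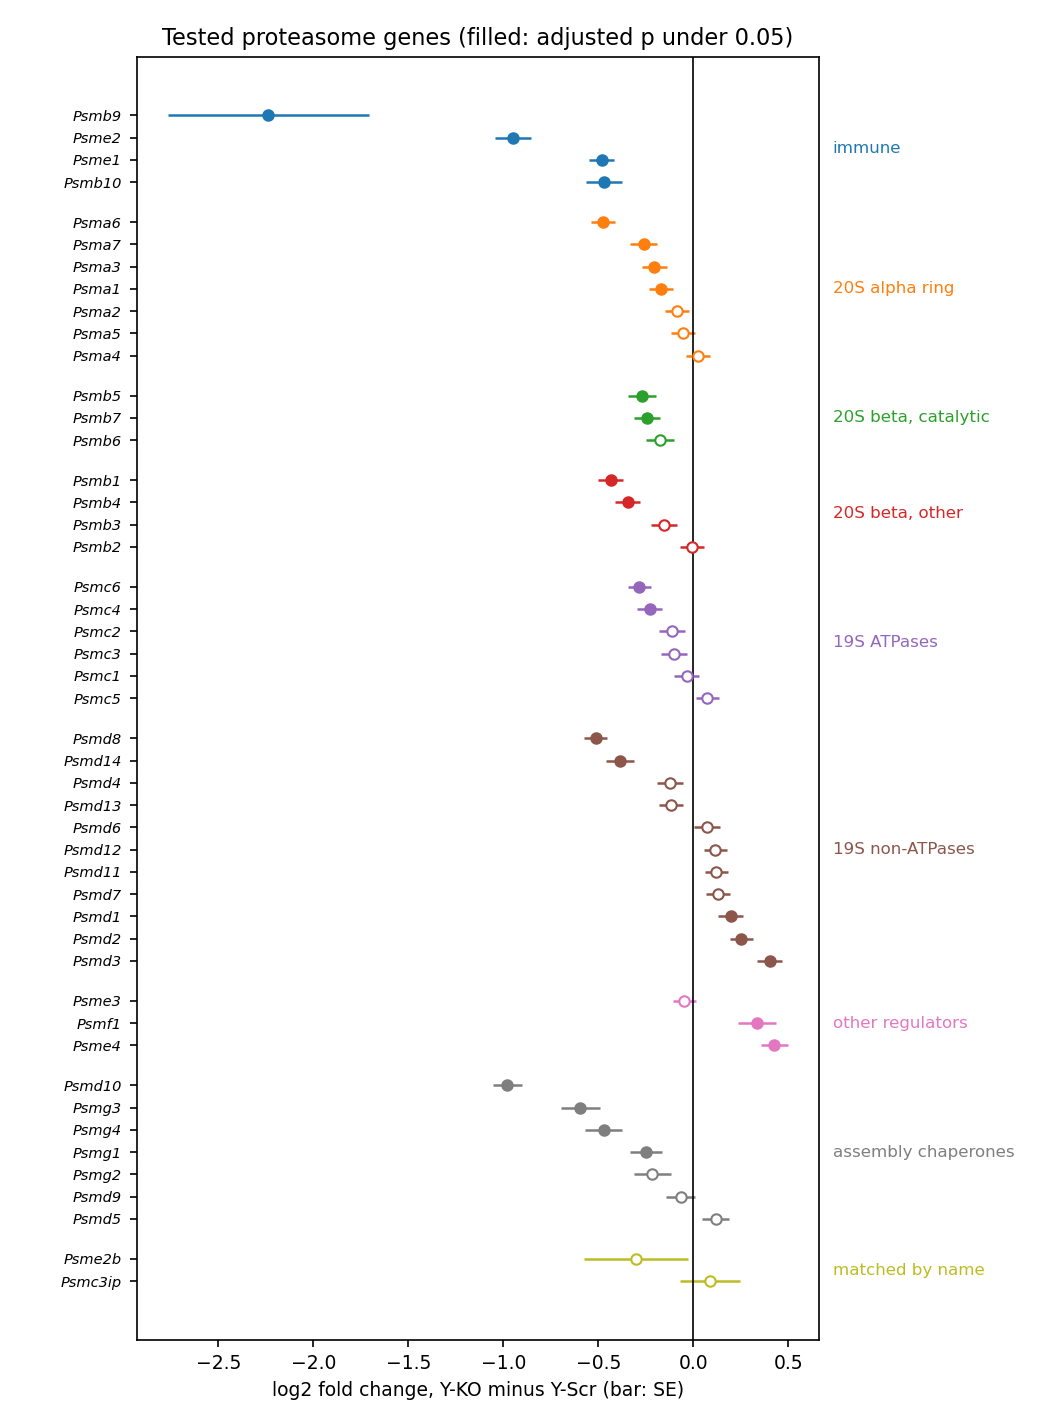
Log2 fold change (Y-KO minus Y-Scr) of the 47 tested genes, grouped by role, with bars of 1 SE; filled points have an edgeR adjusted p under 0.05. All 4 tested immune subunits lie below -0.4, as do Psmd10, Psmg3, Psmd8, Psma6, Psmg4 and Psmb1. The 19S non-ATPases and other regulators reach above 0.

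Of the 14 tested constitutive subunits of the 20S core, 8 fell, 0 rose and 6 did not pass, beside 23.0% lower and 20.7% higher over all genes. Their median of -0.19 was 0.03 with the trends on length and GC removed. Their summed level was 2914, 2690 and 2821 CPM in Y-KO, against 3124, 3539 and 3269 CPM in Y-Scr. All Y-KO sums lay below all Y-Scr sums, and Y-Scr 2 was the highest. In bulk RNA, less RNA of a gene per cell cannot be told apart from fewer cells that express it.

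In the alpha ring, which gates the entry to the core, Psma6 held 244, 221 and 243 CPM in Y-KO, against 319, 344 and 324 CPM in Y-Scr. The groups lay far apart, and Psma6 fell by 0.48 ± 0.06 (SE, edgeR adjusted p = 7.11e-06). Psma7 fell by 0.26 ± 0.07 (adjusted p = 0.00545, edgeR), Psma3 by 0.20 ± 0.07 (0.0154) and Psma1 by 0.17 ± 0.06 (0.0359). Psma7 lost its call with the length trend removed (-0.13, adjusted p = 0.11) and with length and GC removed (-0.10, 0.17). So did Psma3 (-0.12, 0.112, with length removed) and Psma1 (-0.03, 0.712). Psma6 fell by 0.26 with length removed and by 0.16 with length and GC removed. Psma3 was not past the threshold without Y-KO 1 (0.07), Y-KO 2 (0.054) or Y-Scr 2 (0.0939), nor Psma1 without Y-KO 1 (0.0521), Y-KO 2 (0.159), Y-KO 3 (0.11) or Y-Scr 2 (0.173). Psma2, with a log2 fold change of -0.08, Psma4 and Psma5 did not pass the test. Among the non-catalytic beta subunits, Psmb1 held 269, 249 and 261 CPM in Y-KO, against 339, 376 and 338 CPM in Y-Scr, with no overlap. Psmb1 fell by 0.44 ± 0.06 (edgeR adjusted p = 2.29e-05) and Psmb4 by 0.35 ± 0.07 (0.000331, and 0.069 with the length and GC trends removed). Psmb3 had a log2 fold change of -0.15 and passed the test without Y-Scr 1 (adjusted p = 0.0224); Psmb2 did not pass.

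Of the 17 subunits of the 19S cap 4 fell, 3 rose and 10 did not pass, with a median of -0.04. These shares are close to the 23.0% lower and 20.7% higher over all genes, but they depended on the setting. With the length and GC trends removed 1 fell and 8 rose (median 0.13), where 18.8% of all genes fell and 25.3% rose. The cap summed to 3523 ± 109 CPM in Y-KO and 3655 ± 134 CPM in Y-Scr (SD, n = 3 each), and the libraries overlapped. The ATPases form the ring that unfolds substrates. Of these, Psmc6 fell by 0.28 ± 0.06 (edgeR adjusted p = 0.00116) and Psmc4 by 0.23 ± 0.07 (0.00738, and 0.0631 without Y-KO 2). With the length and GC trends removed both calls were lost, at -0.0024 (adjusted p = 0.977) for Psmc6 and -0.09 (0.182) for Psmc4. Psmc3, Psmc1 and Psmc2 had log2 fold changes of -0.10, -0.04 and -0.11, and Psmc5 did not pass either; Psmc3 passed without Y-Scr 1 (adjusted p = 0.0438).

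The non-ATPase subunits split by gene. Psmd8, a lid subunit, held 338, 312 and 327 CPM in Y-KO, against 442, 479 and 475 CPM in Y-Scr, without overlap, and fell by 0.51 ± 0.06 (SE, edgeR adjusted p = 2.23e-06). Psmd14, the deubiquitinase that removes the ubiquitin chain, fell by 0.39 ± 0.07 (adjusted p = 0.000328), but with the length and GC trends removed its fold change was -0.0076 (0.932). In the other direction went Psmd3, a lid subunit, and Psmd1 and Psmd2, the large scaffold subunits of the base. Psmd3 held 204, 193 and 212 CPM in Y-KO, against 142, 154 and 164 CPM in Y-Scr, and rose by 0.40 ± 0.07 (edgeR adjusted p = 7.48e-05). Psmd2 held 496, 482 and 468 CPM in Y-KO, against 408, 399 and 406 CPM in Y-Scr, and rose by 0.25 ± 0.06 (adjusted p = 0.00174). Neither overlapped between the groups. Psmd1 rose by 0.20 ± 0.07 (0.0216), but not past the threshold without Y-KO 1 (0.0839), Y-KO 3 (0.0963) or Y-Scr 3 (0.0807). Psmd4, a ubiquitin receptor, Psmd7 and Psmd13 had log2 fold changes of -0.12, 0.13 and -0.12, and with Psmd6, Psmd11 and Psmd12 they did not pass the test.

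Of the 3 other regulators of the core, 0 fell and 2 rose, beside 23.0% lower and 20.7% higher over all genes, with a median of 0.33. Their median length was 6441 bases, against 4000 bases over all tested genes. With the length trend removed 0 fell and 2 rose (median 0.31). Psme3 encodes PA28 gamma, the nuclear relative that interferon is not known to induce. It held 149, 156 and 159 CPM in Y-KO, against 160, 160 and 159 CPM in Y-Scr. The Y-KO libraries were lower by less than their own spread, with a log2 fold change of -0.05 ± 0.06 (SE, edgeR adjusted p = 0.562). Psme4, which encodes the PA200 cap, held 90.0, 100.2 and 96.2 CPM in Y-KO, against 75.3, 69.1 and 68.6 CPM in Y-Scr. The groups did not overlap, and Psme4 rose by 0.43 ± 0.07 (edgeR adjusted p = 8.35e-05). Psmf1, known as the inhibitor PI31, rose by 0.33 ± 0.10 (0.00994, and 0.09 without Y-KO 3).

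Assembly chaperones help build the core and the cap without being part of the finished particle. Of 7 tested, 4 fell, 0 rose and 3 (Psmg2, Psmd5 and Psmd9) did not pass, beside 23.0% lower and 20.7% higher over all genes. The median was -0.25, and -0.14 with the length and GC trends removed. Psmd10, also called gankyrin, assists the base of the cap and lies on the X chromosome. It held 42.5, 40.7 and 44.0 CPM in Y-KO, against 79.8, 88.2 and 82.8 CPM in Y-Scr. The groups were tight and far apart, and Psmd10 fell by 0.98 ± 0.08 (SE, edgeR adjusted p = 5.38e-09). Psmg3, a chaperone of alpha-ring assembly, held 17.5, 18.05 and 16.1 CPM in Y-KO, against 24.6, 27.7 and 25.8 CPM in Y-Scr, and fell by 0.59 ± 0.10 (adjusted p = 0.000109). Its partner Psmg4 fell by 0.47 ± 0.10 (0.000617), or by 0.31 with the length trend removed, and Psmg1 by 0.25 ± 0.08 (0.0221). Psmg1 was not past the threshold without Y-KO 2 (0.0808), Y-KO 3 (0.0874) or Y-Scr 2 (0.0985), nor with the length trend (0.777) or the length and GC trends removed (0.778).

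Psma8, a testis form of an alpha subunit, and Psmb11, the thymus form of the chymotrypsin-like subunit, held 0 counts in every library. The name rule also takes Psmc3ip, a meiotic recombination factor named for its binding to Psmc3, and Psme2b. Psme2b held 28.8, 43.2 and 35.7 CPM in Y-KO, against 34.9, 37.6 and 59.1 CPM in Y-Scr, overlapping groups with a log2 fold change of -0.30 ± 0.27 (SE, edgeR adjusted p = 0.44). Psmc3ip did not pass the test. Counted with Psmb9, 8 members overlap another gene with at least 50 counts, Psmb7, Psma2, Psma3 and Psme1 among them, and their counts are uncertain to that extent.

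Gene length and GC content moved with the comparison. The median log2 fold change was -0.14 over the 2582 shortest tested genes and 0.14 over the 2582 longest, and -0.10 over the 2580 lowest in GC and 0.09 over the 2580 highest. The median gene length was 1986.5 bases for the immune subunits, 2808 bases for the others and 4000 bases for all tested genes. Both trends were taken out of every library, an alternative chosen after the data were seen. All 4 tested immune subunits still fell: Psmb9 by 2.20, Psme2 by 0.71, Psmb10 by 0.40 and Psme1 by 0.35. With the length trend alone removed they fell by 2.14, 0.74, 0.26 and 0.30 in the same order. Psmb9 passed the low-count filter only through Y-Scr, so its fall is no support here. With both trends removed the immune median, Psmb9 included, was -0.55, against 0.05 over all tested genes. Without Psmb9 the middle value was that of Psmb10, -0.40. The constitutive core did not keep its direction: 3 of 14 core genes fell, 4 rose and the median was 0.03. Of all 43 other members, 7 fell and 15 rose, with a median of 0.04, where 18.8% of all genes fell and 25.3% rose. The 7 were Psmd10 (-0.60), Psmg3 (-0.50), Psmg4 (-0.40), Psmd8 (-0.38), Psmb1 (-0.29), Psmb5 (-0.18) and Psma6 (-0.16). Psme4 (0.59), Psmd2 (0.35), Psmf1 (0.31), Psmd3 (0.31) and Psmd1 (0.18) were among those that rose. With the length trend alone removed, 9 others fell and 13 rose, where 19.4% of all genes fell and 25.7% rose.

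**Figure D4:**
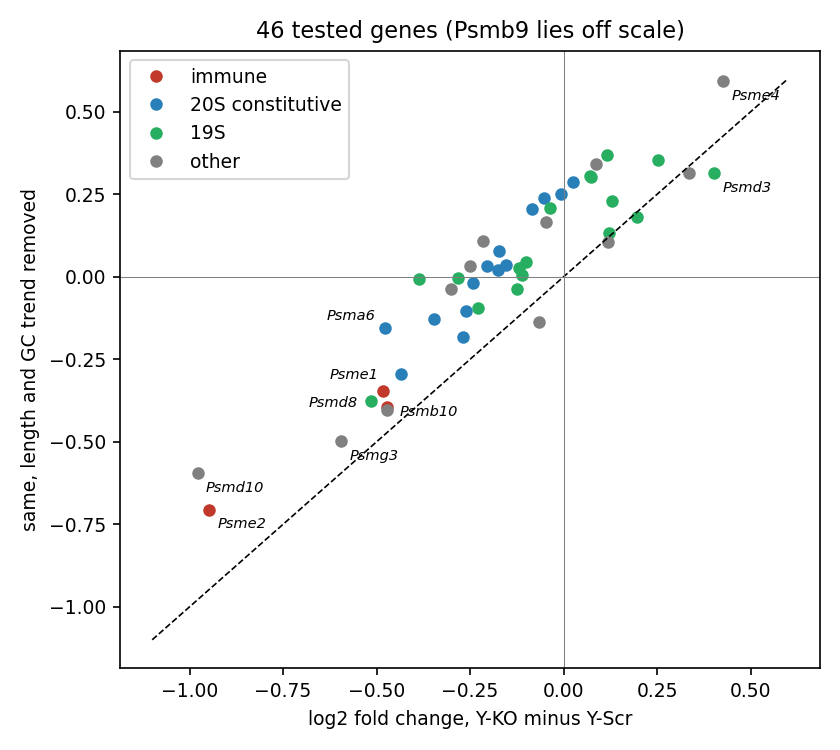
Log2 fold change (Y-KO minus Y-Scr) with the length and GC trend removed, on the vertical axis, against the fold change without that step, on the horizontal axis, for 46 tested genes; Psmb9 lies off scale and the dashed line marks equality. The core median moves to 0.03, while Psme2 (-0.71), Psmd10 (-0.60), Psmb10 (-0.40) and Psme1 (-0.35) stay below 0.

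The steps around the proteasome went both ways. Of 23 tested partner genes (receptors, shuttles and transcription factors of the proteasome), 10 fell and 9 rose, beside 23.0% lower and 20.7% higher over all genes, with a median of 0.06. With the length and GC trends removed 7 fell and 10 rose. Akirin2, which imports proteasomes into the nucleus, fell by 0.56 ± 0.07 (SE, edgeR adjusted p = 6.6e-06), and the segregase cofactor gene Ufd1 by 0.40 ± 0.07 (0.000229). Zfand2a, a stress-induced regulator of the proteasome, fell by 0.33 ± 0.06 (0.000355). The shuttle gene Ubqln4 rose by 0.61 ± 0.07 (2.07e-06), Vcp, the segregase itself, by 0.46 ± 0.07 (1.38e-05) and the shuttle gene Rad23b by 0.26 ± 0.06 (0.00142).

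Cytosolic and endoplasmic reticulum peptidases trim what the proteasome releases. Of 7 tested, 0 fell and 5 rose, beside 23.0% lower and 20.7% higher over all genes, with a median of 0.21. These genes are long, with a median of 7140 bases, and 5 rose also with the length trend removed (median 0.17). The aminopeptidase gene Npepps rose by 0.33 ± 0.06 (SE, edgeR adjusted p = 0.000145), the oligopeptidase gene Thop1 by 0.39 ± 0.07 (0.000191), Tpp2 by 0.27 ± 0.07 (0.0026), Lap3 by 0.21 ± 0.07 (0.018) and Nrd1 by 0.18 ± 0.06 (0.0197). Of 11 tested genes of class I assembly and peptide loading, 8 fell and 1 rose, beside 23.0% lower and 20.7% higher over all genes, with a median of -0.54. With the length trend removed, alone or with GC, 7 fell and 3 rose, with medians of -0.42 and -0.38. Tapbp, the bridge between transporter and class I molecule, held 145, 135 and 132 CPM in Y-KO, against 209, 188 and 203 CPM in Y-Scr, and fell by 0.54 ± 0.06 (edgeR adjusted p = 1.66e-06).

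Interferon signalling is known to drive the immune subunits. Of 13 tested regulators of it, 8 fell and 2 rose, beside 23.0% lower and 20.7% higher over all genes, with a median of -0.48. Irf1, a transcription factor that induces Psmb9 and Tap1, held 40.4, 42.5 and 39.5 CPM in Y-KO, against 103, 112 and 107 CPM in Y-Scr. The groups lay far apart, and Irf1 fell by 1.40 ± 0.07 (SE, edgeR adjusted p = 1.22e-11). Ifngr1, a chain of the interferon gamma receptor, fell by 0.89 ± 0.08 (edgeR adjusted p = 4.14e-08). The interferon gamma gene itself, Ifng, held 0 counts in all 6 libraries.

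Some neighbours of the immune genes, picked by hand, fell as well, beside 23.0% lower over all genes. Irf9, Tap1 and Tap2 also belong to the interferon and class I lists above, and a part of position was not tested. On chromosome 14, Psme1 and Psme2 lie with Emc9 between them and Rnf31 and Irf9 beyond Psme2. Emc9, a membrane protein insertion factor, had a log2 fold change of 0.05 ± 0.18 (SE, edgeR adjusted p = 0.842). Rnf31, a ubiquitin ligase subunit, fell by 0.39 ± 0.09 (0.00165). Irf9, the DNA-binding part of the interferon-stimulated factor, held 6.66, 8.15 and 6.85 CPM in Y-KO, against 59.0, 60.9 and 63.0 CPM in Y-Scr, and fell by 3.08 ± 0.10 (1.51e-14). Next to Psmb10 on chromosome 8, the kinase gene Pskh1 fell by 0.41 ± 0.14 (edgeR adjusted p = 0.0201). On chromosome 17, Tap1 and Tap2 alternate with Psmb9 and Psmb8. Tap1 held 12.8, 14.5 and 14.0 CPM in Y-KO, against 30.1, 31.5 and 31.0 CPM in Y-Scr, and fell by 1.16 ± 0.10 (edgeR adjusted p = 2.22e-08). Tap2 fell by 0.57 ± 0.14 (0.00284).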

How the data were processed

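RNA-seq was read from a table of read counts per gene that the authors deposited, with 1 column per library and no normalization; every column belonged to a listed sample. The submitters' processing notes name STAR 2.5.2b, featureCounts 1.5.3, Trimmomatic 0.39, DESeq2 and quality reports (MultiQC 1.13, FastQC 0.12.1), and the builds mm39 and GRCm39. Of 54409 genes also in a GRCm38 annotation, 53462 (98.3%) had the same position, so coordinates are given as GRCm38. Per the labels' protocols, libraries were stranded TruSeq from poly-A RNA.

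Counts were fitted here in R 4.3.3 by edgeR 4.0.16 (a robust quasi-likelihood fit on group alone, after filterByExpr and TMM scaling) over 12907 genes, with Benjamini-Hochberg adjustment and a threshold of 0.05. Log2 fold changes subtract Y-Scr, ± SE. CPM uses TMM-scaled library sizes. A count of 3 equals 0.122 to 0.191 CPM; intervals and floors cover counting error only. No replicate pair agreed within sampling noise (chi-square over degrees of freedom, 3.44 to 14.8). Ratios of paired subunits used exact permutation tests. Upstream windows came from RefSeq and matched 42 of 50 members. The edgeR fit was tested on simulated counts with 100 genes changed by 1.5 times and 100 by 2 times. It recovered 59% and 88% of them, and 6.96% of its calls were false. The simulated counts held no trend on length or GC, and a far smaller share of changed genes than the 43.6% called in the data. These rates therefore need not hold for the comparison of Y-KO with Y-Scr.

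The members and lists were chosen with earlier results of these data known. Named were the immune subunits and their counterparts, every other member past the threshold, up to 10 others by mean level and up to 6 per further list by adjusted p; other names were added after values were seen. A few genes covered by these rules are not reported here. Alternatives were other scalings, DESeq2 1.42.0, limma-voom, no or a stricter low-count filter, only protein-coding genes, a block on the replicate number, removed trends on length (4 spline degrees of freedom) and on length with GC, and each library left out.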

Additional observations from a re-analysis of the deposited data

How the results depend on the processing

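The calls of Psmb10, Psme1 and Psme2 held in all 16 settings. Psmb9 held wherever it was tested and was not tested at a minimum of 1 CPM in 3 libraries. Where the low-count filter was used, Psmb9 passed it only through its Y-Scr libraries, so its calls there are no support. Of 751 gene fold changes over the settings, 35 lost the call in the same direction, 17 gained one and 36 changed sign, 24 of these in the 2 trend settings. In 25 of the 36 neither value was past the threshold, so no direction had been called. The immune median was -0.94 with DESeq2 and -0.95 with no low-count filter (5 genes, Psmb8 included), -0.48 at 1 CPM (3 genes), -0.52 with the length trend removed and -0.55 with length and GC removed. With the length trend removed, 9 other members fell and 13 rose, with a median of 0.014; with length and GC removed, 7 fell and 15 rose, with a median of 0.037. Those that changed sign with either value past the threshold were, with length removed, Psmc1 (0.17), Psma5 (0.17) and Psmb2 (0.21), and, with length and GC removed, Psma1 (0.078), Psmc1 (0.21), Psma2 (0.21), Psma3 (0.032), Psme3 (0.17), Psma5 (0.24), Psmb2 (0.25) and Psmg1 (0.031).

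Leaving out 1 library at a time gave 20 to 28 called members (25 with all). In every case 4 immune subunits were lower and 0 higher, but Psmb9, one of the 4, passed the filter only through Y-Scr. Of the others, 11 to 19 were lower and 3 to 5 higher, with 3 without Y-KO 3 and 11 without Y-KO 2 or Y-Scr 2. The immune median, Psmb9 included, ranged from -0.79 to -0.67 and the other median from -0.17 to -0.07. The ratio differences ranged from -1.48 to -0.93 (Psmb8 to Psmb5), -2.79 to -1.85 (Psmb9 to Psmb6) and -0.30 to -0.08 (Psmb10 to Psmb7). With 1 count added they were -0.91, -1.97 and -0.22.

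Same-numbered libraries did not deviate together (correlations -0.0642, -0.0344 and -0.024). No pairing by number was seen, but this cannot show that same-numbered libraries shared no culture or run. With the replicate number as a block, 22 members were called, 4 immune subunits lower, 14 others lower and 4 higher. Few counts limit Psmb8 and Psmb9, and 3 libraries per group limit the ratio tests.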
